A study of Homo sapiens with 2 samples.

Results

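The genes of respiratory complex III (ubiquinol-cytochrome c reductase), complex IV (cytochrome c oxidase) and ATP synthase were read after silencing of the adhesion receptor gene ADGRF4 in A549, a widely used cell line from a human lung adenocarcinoma. Members were all symbols that start with UQCR, with ATP5, or with COX and a digit, and that hold no hyphen. The rule took 55 of the 24462 symbols in the count files. It took 8 complex III genes, 26 genes of complex IV and its assembly, 15 ATP synthase genes and 6 other genes that share the prefixes. The 6 others are the copies or pseudogenes UQCRHL, UQCRBP1, ATP5EP2 and ATP5L2, together with ATP5S and ATP5SL, so the name of the set fits 49 of its 55 members. Symbols are given as in the files, and several ATP5 symbols have since been renamed.

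The study holds 2 libraries of 3' end counts, 1 from A549 cells transfected with ADGRF4 siRNAs and 1 from A549 cells transfected with control siRNAs. All cells were grown in DMEM with 10% fetal bovine serum. The libraries held 9825320 counts (ADGRF4 siRNA) and 10396047 counts (control siRNA). ADGRF4 itself had 1 count after ADGRF4 siRNA and 3 counts after control siRNA, neither above the 3 counts taken as the limit for an observed 0, so the labels are not checked by the silenced gene. Neither treatment has a replicate, so no test was made, no p-value is given, and each difference is one between these libraries. The labelled cell line was checked by 8 epithelial and metabolic markers of A549 (KRT7, KRT8, KRT18, KRT19, EPCAM, CDH1, AKR1B10 and AKR1C1), which had 38 to 79367 counts after ADGRF4 siRNA and 75 to 58990 after control siRNA. The 12 markers of blood, endothelium, fibroblasts and muscle summed to 71 counts after ADGRF4 siRNA and 63 after control siRNA, and 5 of them were at 0 in both libraries. COL1A1 held 45 and 50 of those counts.

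Complex III passes electrons from ubiquinol to cytochrome c, and complex IV passes them from cytochrome c to oxygen. Both pump protons across the inner mitochondrial membrane, and ATP synthase lets the protons return through its membrane ring, which turns the catalytic head and makes ATP. The catalytic subunits of complex IV, cytochrome b of complex III and a pair of ATP synthase membrane subunits are encoded in mitochondrial DNA. The other subunits are encoded by nuclear genes, and their proteins are imported. The prefixes take most of these genes but miss some, such as CYC1 of complex III. None of the 13 mitochondrially encoded protein genes was found among the symbols by an MT- name, so they were not analysed here. Reads came from the 3' end of polyadenylated RNA, so a count stands for transcripts and carries no division by length. In bulk RNA, fewer cells and less RNA per cell cannot be told apart.

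Nuclear respiratory genes are known for promoters with sites for NRF1 and for ETS factors such as GABP. The promoters of COX17 and ATP5C1, the members of the complexes or their assembly with the lowest ratios, and of COX4I1 and ATP5I, those with the highest, are shown as the ends of the range of ratios among those members. They come from RefSeq (GRCh38.p14, the first listed start, 250 bases before to 50 after it, read 5' to 3' on the gene's strand). Capitals mark the core letters of the NRF1 motif, GCATGCG, and the ETS motif CCGGAAG, searched on both strands. The NRF1 letters match both strands at 1 place in each of 3 windows, and these overlapping matches form 1 run of capitals.
COX17 (chr3:119677357-119677656, minus strand): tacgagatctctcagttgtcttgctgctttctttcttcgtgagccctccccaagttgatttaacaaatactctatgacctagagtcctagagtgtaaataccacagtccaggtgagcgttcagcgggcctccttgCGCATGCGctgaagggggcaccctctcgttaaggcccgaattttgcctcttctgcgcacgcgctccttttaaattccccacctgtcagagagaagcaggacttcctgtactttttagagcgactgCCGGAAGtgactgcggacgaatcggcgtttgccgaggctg
ATP5C1 (chr10:7787927-7788226, plus strand): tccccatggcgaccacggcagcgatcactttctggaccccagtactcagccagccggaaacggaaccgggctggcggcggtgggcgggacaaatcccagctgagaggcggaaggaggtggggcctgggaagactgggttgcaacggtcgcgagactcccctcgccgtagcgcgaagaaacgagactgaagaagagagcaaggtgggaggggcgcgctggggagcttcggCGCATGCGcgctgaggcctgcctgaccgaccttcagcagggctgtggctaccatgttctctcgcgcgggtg
COX4I1 (chr16:85799445-85799744, plus strand): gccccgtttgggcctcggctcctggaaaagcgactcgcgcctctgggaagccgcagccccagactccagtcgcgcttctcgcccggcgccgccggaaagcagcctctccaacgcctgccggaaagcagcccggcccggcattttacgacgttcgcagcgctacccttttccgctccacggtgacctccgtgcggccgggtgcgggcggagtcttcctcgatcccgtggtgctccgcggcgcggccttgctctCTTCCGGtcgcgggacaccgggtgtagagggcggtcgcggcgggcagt
ATP5I (chr4:674227-674526, minus strand): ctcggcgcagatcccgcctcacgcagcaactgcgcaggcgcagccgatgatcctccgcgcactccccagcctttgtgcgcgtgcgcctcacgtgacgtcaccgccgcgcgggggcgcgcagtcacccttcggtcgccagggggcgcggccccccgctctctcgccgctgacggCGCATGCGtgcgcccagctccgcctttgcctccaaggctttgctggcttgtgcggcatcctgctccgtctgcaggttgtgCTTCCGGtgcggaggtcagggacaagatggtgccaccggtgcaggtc

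The NRF1 motif was found in the COX17, ATP5C1 and ATP5I windows and not in that of COX4I1, and the ETS motif in those of COX17, COX4I1 and ATP5I. A promoter was listed for 41 members. Of these, 8 (19.5%) held the NRF1 motif and 15 (36.6%) the ETS motif, against 4.13% and 10.7% of all 27305 listed promoters. Those listed promoters are not limited to genes with enough counts to compare, so the shares are of unlike sets. Among members with enough counts to compare, the 8 with the NRF1 motif had a median log2 ratio of -0.06, with 1 higher by 1.5-fold or more after ADGRF4 siRNA and 3 lower, and the 29 without it had a median of 0.12, with 4 higher and 6 lower. The 15 with the ETS motif had a median of 0.05 (2 higher, 2 lower) and the 22 without it 0.06 (3 higher, 7 lower). Of all 11771 symbols with enough counts to compare, 21.1% were higher and 22.3% lower by that size. A link between motif and ratio was not tested. Each motif was found in promoters of genes on both sides. A motif match is a description of letters and shows no binding.

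The 3 complexes did not differ between the libraries as blocks: members of 1 complex lay on both sides of the control level. A member was compared where its mean over both libraries was at least 30 counts, which held for 49 of 55. Ratios were taken as log2 of (CPM + 1) after ADGRF4 siRNA over (CPM + 1) after control siRNA, with CPM, the counts divided by a common library total, scaled by TMM (trimmed mean of M values), and 1.5-fold was the size called higher or lower. Of the 49, 8 (16.3%) were higher by that size after ADGRF4 siRNA, 14 (28.6%) were lower and 27 lay between. By the same limit 21.1% of all 11771 symbols compared were higher and 22.3% lower. At 2-fold, 2 members were higher and 5 lower, beside 7.84% and 10.4% of all symbols. The median log2 ratio of the members was 0.01, against -0.02 for all symbols, and it was below 0 with total-count scaling (-0.14) or upper-quartile scaling (-0.01). The SD of the ratios was 0.81 among members and 0.77 among all symbols. Shares near the background are not a result about these genes as a set.

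Most members are abundant, and abundant genes had another background. There were 35 members with a mean of at least 1000 counts, of which 6 (17.1%) were higher and 8 (22.9%) lower after ADGRF4 siRNA. Of all 1957 symbols that abundant, 28.5% were higher and 13.6% lower. The abundant members had a median log2 ratio of 0.17, beside 0.18 for all abundant symbols. Summed, the 55 members took 1.49% of the counts (exact 95% interval 1.482 to 1.497) after ADGRF4 siRNA and 1.56% (1.55 to 1.57) after control siRNA. The TMM-scaled sum was 1.06-fold higher (1.05 to 1.07), so its direction depends on the scaling. The same sum over all symbols was 1.11-fold higher. All intervals here cover counting error only, since each treatment has 1 library. The reads carry no molecular identifiers, so the intervals can be too narrow even for counting error.

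Complex III genes differed least, and none of the 8 reached 1.5-fold, while 21.1% of all symbols were higher and 22.3% lower by that size. All 8 averaged over 1000 counts, and of all symbols that abundant 28.5% were higher and 13.6% lower. The core protein UQCRC1 had 1282 counts after ADGRF4 siRNA and 1317 after control siRNA, 1.14-fold higher after scaling (1.06 to 1.23). The Rieske iron-sulfur protein gene UQCRFS1, which encodes the redox subunit that hands electrons on, had 2243 and 2322 counts, 1.13-fold higher (1.07 to 1.20). UQCRC2, the partner of UQCRC1 in the core, went the other way and had 1151 counts after ADGRF4 siRNA and 2018 after control siRNA. It was 1.495-fold lower by scaled CPM (1.39 to 1.61), with a log2 ratio of -0.58 that fell just short of the limit, and it passed the limit under total-count and upper-quartile scaling. The median log2 ratio of these 3 core genes was 0.18, and -0.29 when ratios were centred on the base composition of the 3' end. Centred, UQCRC1 lay at -0.53, UQCRC2 at -0.29 and UQCRFS1 at 0.465, so UQCRC1 and UQCRC2 were then on the same side.

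The 5 small accessory subunits of complex III lay in a narrow band of log2 ratios from -0.21 to 0.46. UQCR11 had 4830 counts after ADGRF4 siRNA and 4106 after control siRNA, 1.38-fold higher (1.32 to 1.44). UQCRQ had 8550 and 8140 counts (1.23-fold higher, 1.195 to 1.27). UQCR10 had 1249 and 1251 counts, and UQCRH, the hinge protein that sits by the cytochrome c docking site, had 3472 and 3628. UQCRB, the complex III gene with the most counts in each library, was lower, with 9406 after ADGRF4 siRNA and 12805 after control siRNA (1.16-fold lower, 1.13 to 1.19). The SD over the 8 complex III genes was 0.33, less than that of the 20 compared genes of complex IV and its assembly (0.84) or of the 15 ATP synthase genes (0.79). No test of these spreads was made.

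Among the 10 compared structural subunits of complex IV, 2 lay past the 1.5-fold limit on the high side after ADGRF4 siRNA, 2 on the low side and 6 between, while 21.1% of all symbols were past it on the high side and 22.3% on the low side. These 10 all averaged over 1000 counts, and of all symbols that abundant 28.5% were higher and 13.6% lower. COX4I1, the subunit that binds ATP and helps regulate the enzyme, had 16827 counts after ADGRF4 siRNA and 9740 after control siRNA. It was 2.03-fold higher (1.98 to 2.08) and was the member with the most counts after ADGRF4 siRNA. COX7C, a small transmembrane subunit, had 9811 and 7417 counts (1.55-fold higher, 1.505 to 1.599), and was under 1.5-fold with total-count scaling. On the low side, COX7B, another small transmembrane subunit, had 2785 counts after ADGRF4 siRNA and 5707 after control siRNA, 1.75-fold lower (1.67 to 1.83). COX6C had 1171 and 2295 counts, 1.67-fold lower (1.56 to 1.79). COX6C has 17 named pseudogenes, the most of any member, so its counts are uncertain. Neither COX7B nor COX6C reached 1.5-fold after centring on base composition.

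The other 6 structural subunits of complex IV lay between the limits. COX5A, COX5B, COX6B1 and COX7A2 were 1.25-fold to 1.32-fold higher after ADGRF4 siRNA, each with over 1000 counts in both libraries. COX5B, which binds zinc, had 2782 counts after ADGRF4 siRNA and 2469 after control siRNA. COX6A1 had 2165 and 2823 counts. COX8A had 5062 counts after ADGRF4 siRNA and 8380 after control siRNA and was 1.41-fold lower (1.36 to 1.46). The 3' end of COX8A is GC-rich (55.0%), and its centred log2 ratio was -0.98, past the limit, and it was past it with total-count scaling too. These 10 subunits and the 6 isoforms under the count limit summed to 55622 counts after ADGRF4 siRNA, or 0.566% of the library, and to 52695 counts after control siRNA, or 0.507%.

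Tissue-restricted isoforms of complex IV had few counts or 0. COX4I2, COX6A2, COX7A1, COX7B2 and COX8C had 0 counts in both libraries. COX6A2 and COX7A1 are the heart and muscle isoforms, COX7B2 and COX8C are known from testis, and COX4I2 is an isoform of lung and hypoxic tissue. Beside 16827 counts of COX4I1 after ADGRF4 siRNA and 9740 after control siRNA, a count of 0 allows COX4I2 a share of up to 0.0178% and 0.0308%. COX6B2, a testis isoform, had 3 counts after ADGRF4 siRNA and 9 after control siRNA. Those are 0.0383% (exact 95% interval 0.0079 to 0.112) and 0.125% (0.0572 to 0.237) of the counts of COX6B1 and COX6B2 together, intervals that overlap. These 6 genes are the members that were under the count limit.

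**Figure D1:**
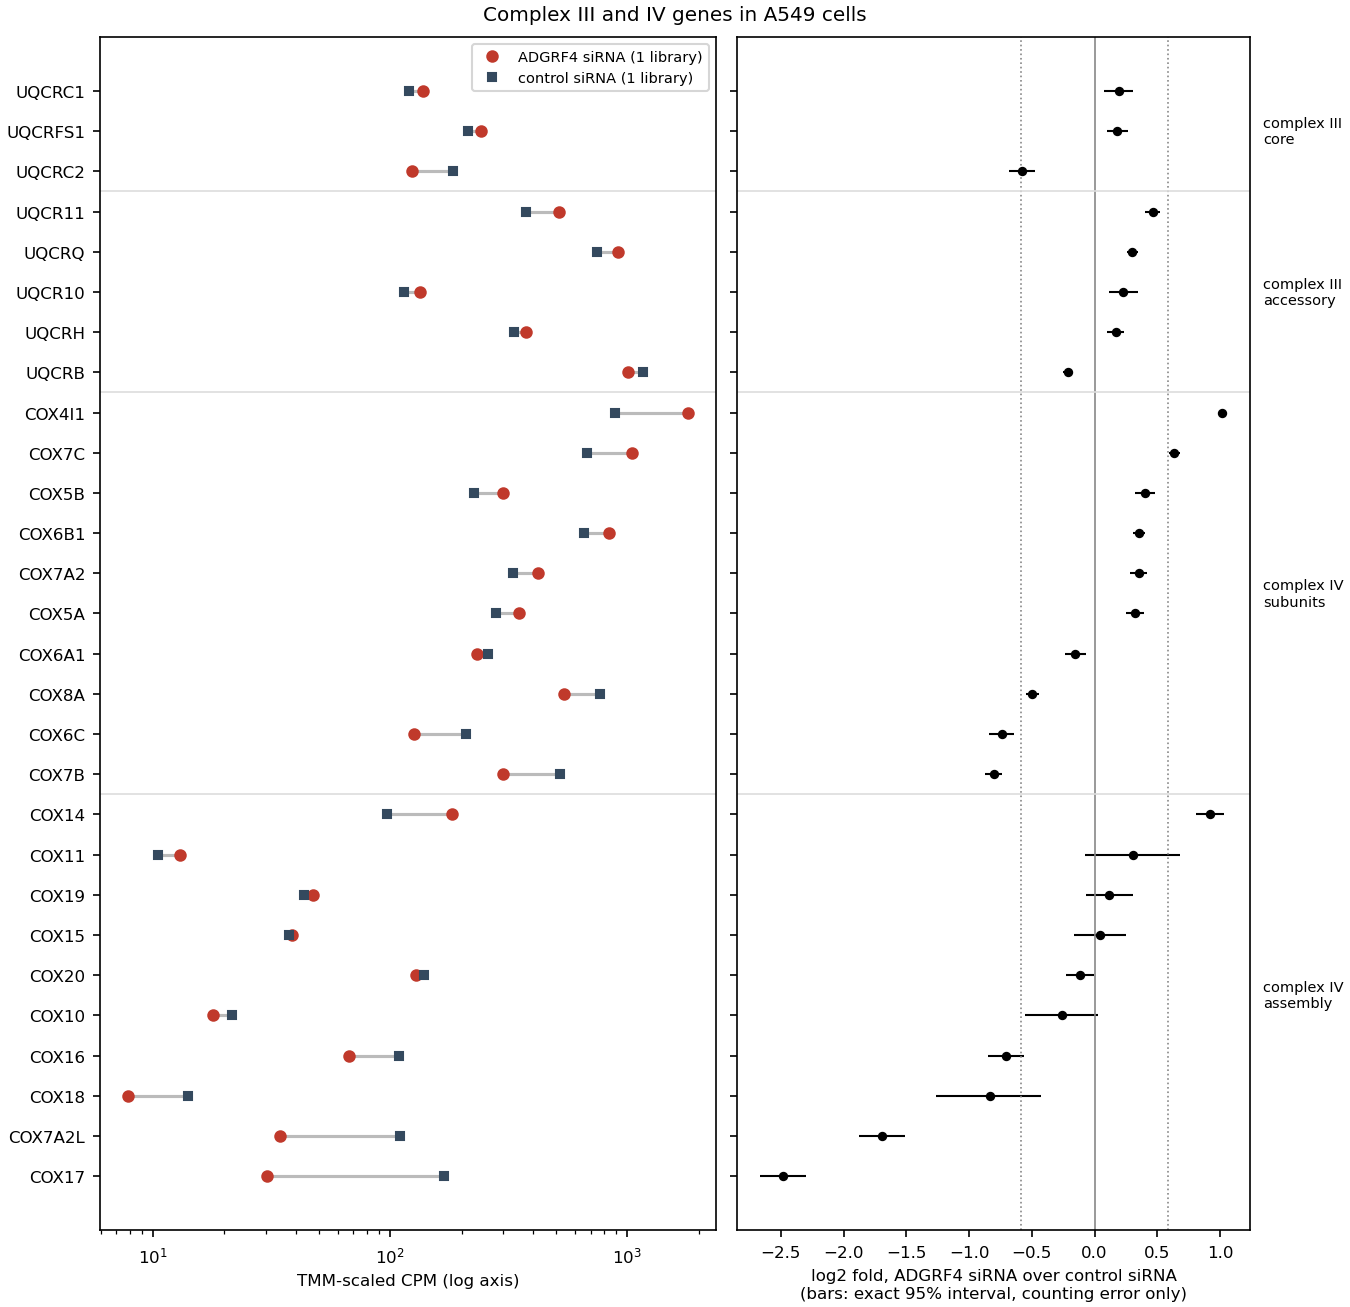
Levels (left, TMM-scaled CPM on a log axis) and log2 folds (right, ADGRF4 siRNA over control siRNA) of the compared complex III and IV genes, 1 library per group; bars are exact 95% intervals for counting error, and dotted lines mark 1.5-fold. Complex III genes lie between the lines, COX4I1 lies highest at 2.03-fold, and COX17 and COX7A2L lie farthest to the left.

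The widest differences in complex IV were in genes that build it. Of the 10 assembly and supercomplex genes, 4 were past the limit on the low side after ADGRF4 siRNA, 1 was past it on the high side and 5 lay between, against 22.3% lower and 21.1% higher among all symbols. COX17, the copper chaperone of the intermembrane space that supplies the copper centres of complex IV, had 281 counts after ADGRF4 siRNA and 1838 after control siRNA. It was 5.58-fold lower (4.92 to 6.35), the lowest ratio of any member outside the copies. COX7A2L, which joins complexes III and IV in supercomplexes, had 319 and 1210 counts (3.23-fold lower, 2.86 to 3.67). COX17 and COX7A2L were past 2-fold after centring on base composition too, with log2 ratios of -2.16 and -1.49. COX16, which assists copper insertion, had 624 counts after ADGRF4 siRNA and 1193 after control siRNA (1.63-fold lower, 1.48 to 1.80). COX16 shares exons with the readthrough gene SYNJ2BP-COX16, which had 1026 and 1341 counts. COX18, which inserts a mitochondrially encoded subunit into the membrane, had 73 and 153 counts (1.79-fold lower, 1.34 to 2.40) and did not reach 1.5-fold after centring.

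The other members that act in the heme and copper steps were not past the limit. Genes of these steps outside the COX prefix are given further below, and some of those were past it. COX10 and COX15, which convert heme b to heme o and heme a, had 167 and 361 counts after ADGRF4 siRNA, against 235 and 410 after control siRNA. The intervals of their folds, 0.680 to 1.02 and 0.894 to 1.19, include 1. COX11, which delivers copper to a catalytic subunit, had 121 counts after ADGRF4 siRNA and 115 after control siRNA, and COX19, a helper of COX11, had 439 and 474. The intervals of these also include 1, so at this depth no difference was detectable for these 4 genes. COX20, a chaperone of a newly made catalytic subunit, had 1195 and 1518 counts (1.08-fold lower, 1.003 to 1.17). COX14, which acts early in assembly, stood on the high side with 1708 counts after ADGRF4 siRNA and 1056 after control siRNA, 1.90-fold higher (1.76 to 2.05).

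In the catalytic head of ATP synthase, known as F1, 2 of 5 genes were lower by 1.5-fold or more after ADGRF4 siRNA and 0 higher, and among all symbols 22.3% were lower and 21.1% higher. ATP5C1, the gamma subunit that forms the rotating central shaft, had 454 counts after ADGRF4 siRNA and 2097 after control siRNA, 3.94-fold lower (3.56 to 4.37). ATP5B, the catalytic beta subunit, had 2486 and 5156 counts (1.77-fold lower, 1.69 to 1.86). ATP5A1, the alpha subunit that alternates with beta in the head, was on the other side, with 1983 counts after ADGRF4 siRNA and 1856 after control siRNA (1.25-fold higher, 1.18 to 1.34). ATP5E, the epsilon subunit, had 3037 and 3542 counts, a ratio of 1.01 after scaling (0.958 to 1.06). ATP5D, the delta subunit, had 161 and 224 counts, with an interval of the ratio (0.684 to 1.04) that includes 1. The low values of ATP5C1 and ATP5B were also past the limit after centring, at log2 ratios of -1.67 and -0.92.

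The peripheral stalk, which holds the head still against the turning ring, gave 3 of 4 genes lower by that size and 0 higher, and 1 of 4 lower after centring on base composition. The shares of all symbols were 22.3% lower and 21.1% higher, and 19.1% and 15.2% after centring. ATP5H, subunit d, had 399 counts after ADGRF4 siRNA and 1133 after control siRNA, 2.42-fold lower (2.16 to 2.72). ATP5O, the oligomycin sensitivity-conferring protein at the top of the stalk, had 2123 and 3863 counts (1.55-fold lower, 1.47 to 1.64). ATP5F1, subunit b, had 670 and 1213 counts (1.54-fold lower, 1.40 to 1.70). After centring ATP5H stayed past the limit with a log2 ratio of -1.03, ATP5O lay at -0.58, just short of it, and ATP5F1 lay at -0.27. ATP5J, coupling factor 6, had 2179 counts after ADGRF4 siRNA and 2508 after control siRNA, a ratio of 1.02 (0.962 to 1.08). The summed counts of the 4 stalk genes were 5371 after ADGRF4 siRNA and 8717 after control siRNA, 1.38-fold lower (1.34 to 1.43).

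In the membrane part of ATP synthase, 3 of 6 genes were past the limit on the high side after ADGRF4 siRNA and 1 on the low side, and after centring 0 were past it on either side. Of all symbols, 21.1% were past it on the high side and 22.3% on the low side, and 15.2% and 19.1% after centring. All 6 genes averaged over 1000 counts, and of all symbols that abundant 28.5% were higher and 13.6% lower without centring. ATP5I, subunit e, which links ATP synthase dimers, had 4779 counts after ADGRF4 siRNA and 2946 after control siRNA, 1.90-fold higher (1.82 to 1.99). ATP5J2, subunit f, had 3496 and 2678 counts (1.53-fold higher, 1.46 to 1.61) and was under 1.5-fold with total-count scaling. It shares exons with the readthrough gene ATP5J2-PTCD1, which had 1252 and 1202 counts, and overlaps exons of PTCD1 itself, which had 1255 and 1204. ATP5L, subunit g, had 6986 counts after ADGRF4 siRNA and 10352 after control siRNA and was 1.26-fold lower (1.23 to 1.30). The median log2 ratio of the 6 was 0.05 after centring, against 0.40 without it.

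**Figure D2:**
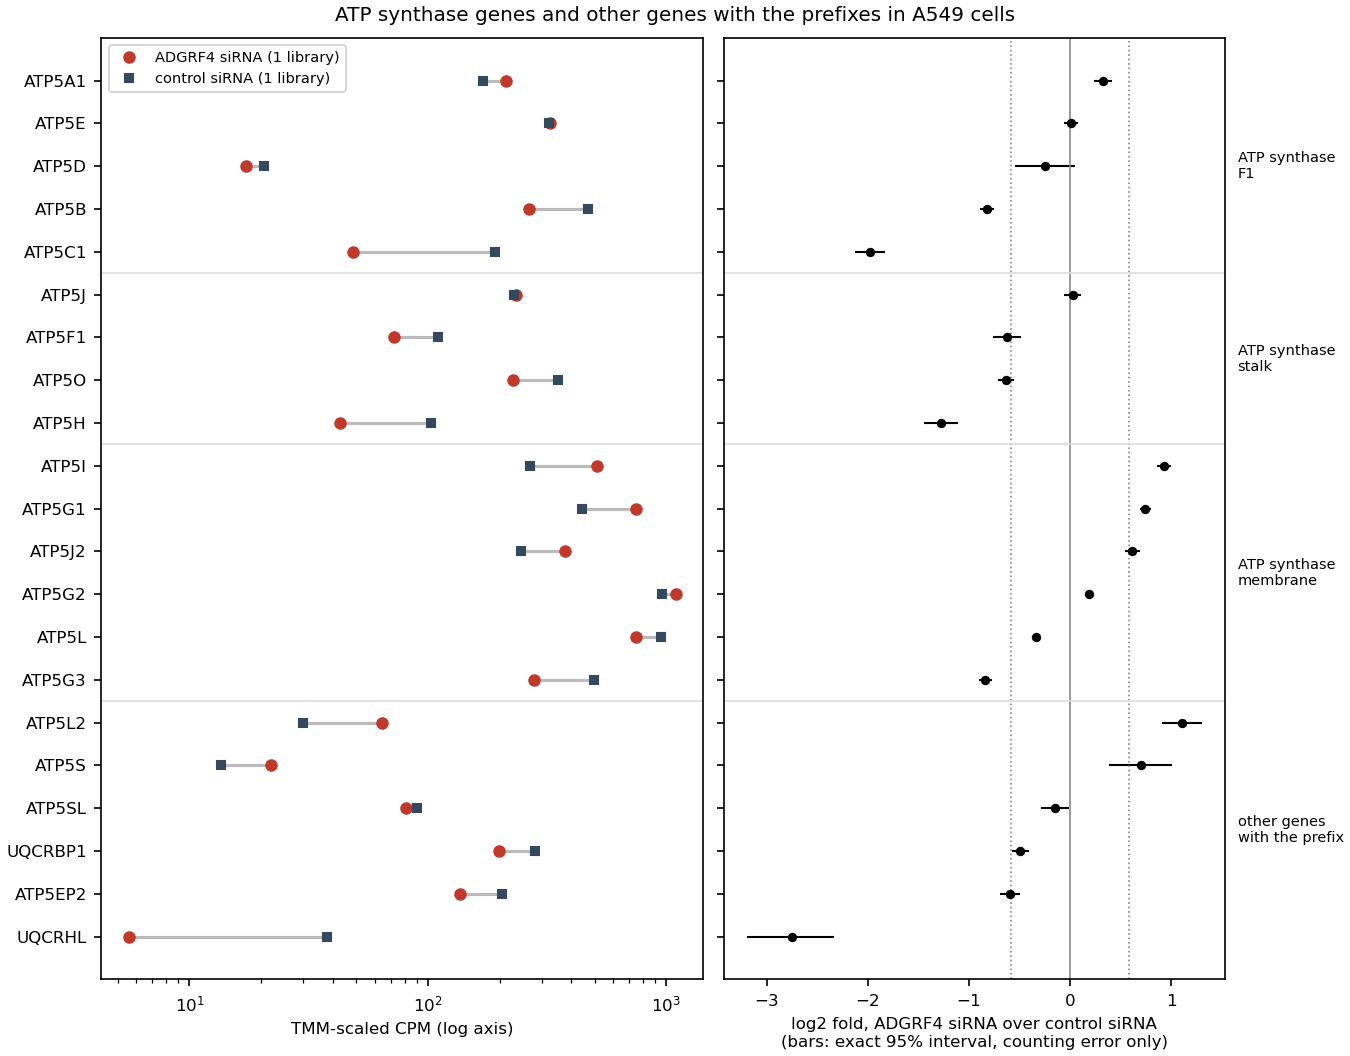
Levels (left, TMM-scaled CPM on a log axis) and log2 folds (right, ADGRF4 siRNA over control siRNA) of the ATP synthase genes and of the 6 other genes with the prefixes, 1 library per group; bars are exact 95% intervals for counting error, and dotted lines mark 1.5-fold. ATP5C1 and ATP5H lie lowest among ATP synthase genes, ATP5I and ATP5G1 highest, and UQCRHL lies lowest of all.

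The genes of subunit c showed a shift among themselves while their sum moved little. ATP5G1, ATP5G2 and ATP5G3 encode precursors that differ in their import sequences and give the same mature protein, the unit of the rotating ring. ATP5G1 had 6942 counts after ADGRF4 siRNA and 4856 after control siRNA, 1.68-fold higher (1.62 to 1.74). ATP5G3 had 2596 and 5440 counts, 1.79-fold lower (1.71 to 1.87). ATP5G2 had 10205 and 10533 counts, 1.14-fold higher (1.11 to 1.17). ATP5G1 thus took 35.2% of the summed subunit c counts (exact 95% interval 34.5 to 35.8) after ADGRF4 siRNA and 23.3% (22.7 to 23.9) after control siRNA. ATP5G3 took 13.1% (12.7 to 13.6) after ADGRF4 siRNA and 26.1% (25.5 to 26.7) after control siRNA, and ATP5G2 took 51.7% (51.0 to 52.4) and 50.6% (49.9 to 51.3). The sum of the 3 was 1.11-fold higher after scaling (1.09 to 1.13), and the scaled sum of all symbols was 1.11-fold higher too. A share within the family does not depend on library scaling. The transcripts align to each other over 230 to 303 bases at 80.4% to 89.1% identity. The 3' end is 55.0% GC in ATP5G1, 51.7% in ATP5G2 and 26.3% in ATP5G3, in the same order as their ratios, and the centred log2 ratios were 0.26, -0.15 and -0.48. The part of base composition in the shift was not tested further.

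The copies and pseudogenes differed from their parent genes in the size of the difference and, for UQCRHL and ATP5L2, in its direction. UQCRHL, an expressed copy of UQCRH, had 52 counts after ADGRF4 siRNA and 412 after control siRNA, 6.76-fold lower (5.05 to 9.20), while UQCRH was 1.12-fold higher (1.07 to 1.18). UQCRHL made up 1.48% (1.10 to 1.93) of the counts of the pair after ADGRF4 siRNA and 10.2% (9.28 to 11.2) after control siRNA. Their transcripts align over 515 bases at 98.1% identity. ATP5L2, a copy of ATP5L, had 602 counts after ADGRF4 siRNA and 327 after control siRNA, 2.16-fold higher (1.88 to 2.48), and its transcript aligns to ATP5L over 473 bases at 93.2% identity. ATP5EP2, a pseudogene of ATP5E, had 1273 and 2249 counts (1.51-fold lower, 1.41 to 1.62; under the limit with DESeq2 size factors), and UQCRBP1, a pseudogene of UQCRB, had 1859 and 3067 (1.41-fold lower, 1.33 to 1.49). ATP5EP2 aligns over 156 bases at 96.2% and UQCRBP1 over 336 bases at 94.9%. The rule for reads that map to several places is not given in the sources used here, so counts of these pairs are uncertain in how they were split.

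The remaining genes with the prefix are not subunits of the complexes. ATP5S had 206 counts after ADGRF4 siRNA and 149 after control siRNA, 1.62-fold higher (1.31 to 2.02), and was under 1.5-fold with total-count scaling. Exons of ATP5S are overlapped on the other strand by CDKL1, among other genes, and CDKL1 had 21 counts after ADGRF4 siRNA and 54 after control siRNA. ATP5SL, since renamed DMAC2 and known for complex I assembly, had 757 and 982 counts, a ratio of 0.904 (0.821 to 0.995).

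**Figure D3:**
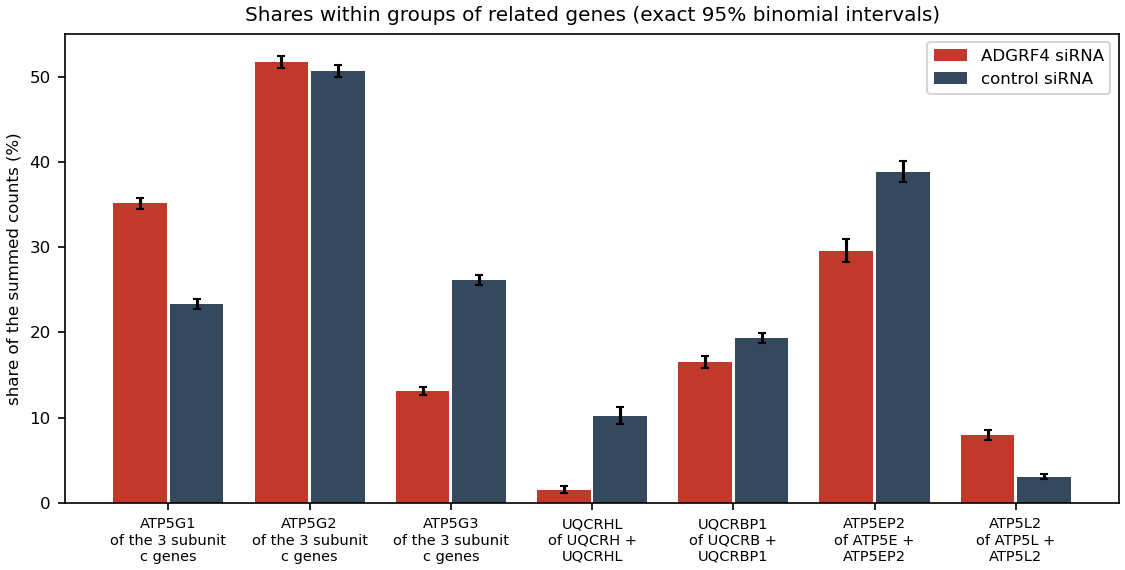
Share of summed counts (percent, bars from 0) that each subunit c gene takes of the 3 subunit c genes, and that each copy or pseudogene takes of itself plus its parent, with ADGRF4 siRNA left and control siRNA right; error bars are exact 95% binomial intervals for counting error. ATP5G1 and ATP5L2 take more and ATP5G3, UQCRHL, UQCRBP1 and ATP5EP2 take less after ADGRF4 siRNA.

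The log2 ratio tended to rise with the GC content of the transcript's end, among these genes as among all compared symbols. Across the 49 compared members, the Spearman correlation of the log2 ratio with the GC content of the transcript's final 300 bases was 0.47, and across all compared symbols with a value it was 0.46. Genes share the 2 libraries and are not replicates. The 8 members on the high side had a median 3' GC content of 51.2% (34.0 to 55.0), the 27 between the limits 42.7% (31.3 to 58.0) and the 14 on the low side 36.0% (25.0 to 45.7). COX7C, at 34.0% GC and higher after ADGRF4 siRNA, and COX8A, at 55.0% GC and lower, went against that order. After ratios were centred on the median of symbols with like GC content, 5 members were higher by 1.5-fold or more (10.2%) and 8 lower (16.3%), beside 15.2% and 19.1% of all symbols. COX4I1 (0.68), COX14 (0.77), COX7C (0.91), ATP5S (0.84) and ATP5L2 (1.24) were the 5 on the high side by centred log2 ratio. COX17, ATP5C1, COX7A2L, ATP5H, ATP5B, COX16 and UQCRHL were on the low side, and COX8A joined them.

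**Figure D4:**
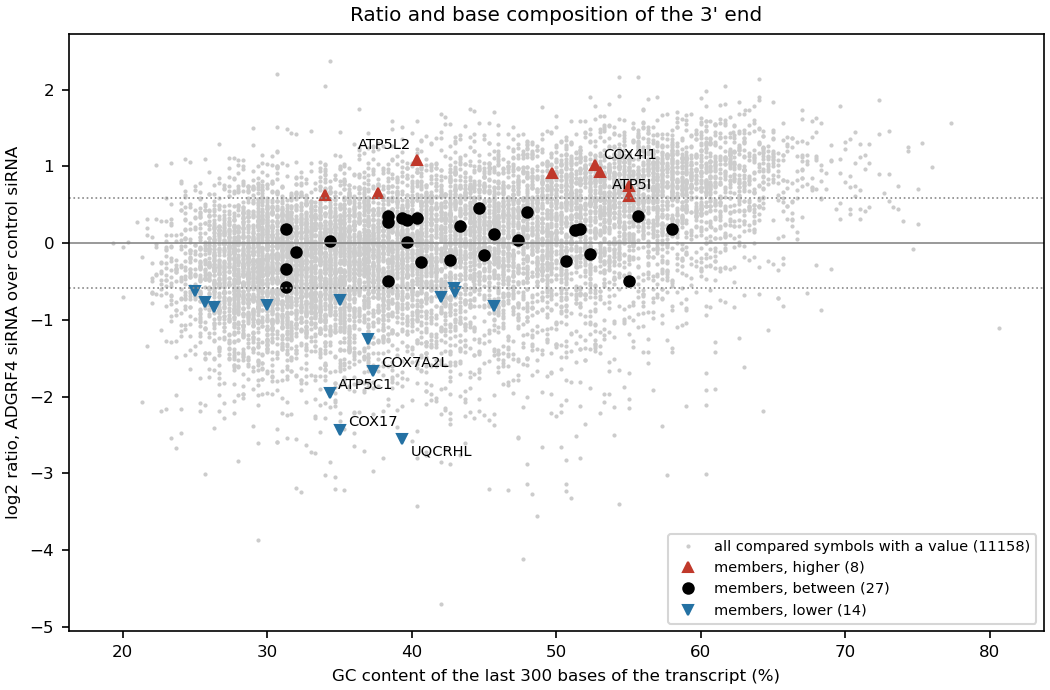
Log2 ratio (ADGRF4 siRNA over control siRNA, vertical) against GC content in the final 300 transcript bases (percent, horizontal) for 11158 compared symbols (grey) and the 49 compared members, marked as higher, between or lower by 1.5-fold (dotted lines). Members on the low side have a median of 36.0% GC and those on the high side 51.2%.

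Near the 1.5-fold limit the call of a member rests on small steps. Just past it on the high side were ATP5J2 (log2 ratio 0.61), COX7C (0.63) and ATP5S (0.66), and just short of it were UQCR11 (0.46), COX5B (0.40) and COX6B1 (0.35). On the low side ATP5EP2 (-0.59), ATP5F1 (-0.62) and ATP5O (-0.63) were just past it, and UQCRC2 (-0.58), COX8A (-0.50) and UQCRBP1 (-0.49) just short of it. Of the 27 complex genes with at least 1 named pseudogene, 4 (14.8%) were higher and 7 (25.9%) lower (median log2 ratio 0.03). Of the 16 with 0, 2 (12.5%) were higher and 5 (31.2%) lower (median -0.09). Among all symbols 21.1% were higher and 22.3% lower. The part of pseudogene reads in these ratios was not tested. Exons of COX4I1 are overlapped on the other strand by EMC8 (438 counts after ADGRF4 siRNA and 519 after control siRNA), those of ATP5I by MYL5 (220 and 149), those of ATP5H by KCTD2 (312 and 281) and those of ATP5F1 by WDR77 (194 and 248). The strand setting of the counting is not given in the sources used here, so if strand was ignored, a pair's reads were pooled.

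Partners of these complexes in the respiratory chain also lay on both sides. All 38 listed complex I genes were compared, and 9 (23.7%) were higher by 1.5-fold or more after ADGRF4 siRNA and 11 (28.9%) lower, with a median log2 ratio of 0.18. These shares lie near the 21.1% and 22.3% of all symbols. NDUFB3, an accessory subunit, had 38 counts after ADGRF4 siRNA and 352 after control siRNA (7.90-fold lower, 5.64 to 11.3). NDUFB5, NDUFC1 and NDUFA8 were 4.28-fold, 3.41-fold and 3.14-fold lower. NDUFS6, named after its values were seen, was 2.62-fold higher (2.51 to 2.73). NDUFA4, listed here with complex I and since assigned to complex IV, had 2040 counts after ADGRF4 siRNA and 5342 after control siRNA (2.23-fold lower, 2.12 to 2.35), and was also named after its values were seen. In complex II and the cytochromes c, 3 of 5 compared genes were lower and 0 higher, beside 22.3% and 21.1% of all symbols. SDHB, the iron-sulfur subunit of succinate dehydrogenase, had 41 and 249 counts (5.18-fold lower, 3.71 to 7.39), the membrane anchor SDHC was 2.59-fold lower, and CYCS, the electron carrier between complexes III and IV, was 1.52-fold lower (1.41 to 1.63). SDHA, the flavoprotein subunit, was 1.12-fold lower (1.01 to 1.24). CYC1, cytochrome c1, is a complex III subunit that the prefixes miss. It had 1811 counts after ADGRF4 siRNA and 2183 after control siRNA, a ratio of 0.973 (0.914 to 1.04). The centred log2 ratio of CYC1 was -0.62.

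Assembly factors outside the COX prefix gave 7 of 22 higher (31.8%) and 4 lower (18.2%), beside 21.1% and 22.3% of all symbols. COA6, which works with COX17 and the SCO proteins on copper delivery, had 43 counts after ADGRF4 siRNA and 230 after control siRNA (4.56-fold lower, 3.28 to 6.47), and COA1 had 56 and 254 (3.87-fold lower, 2.89 to 5.26). TACO1, a translational activator of a complex IV catalytic subunit, had 871 and 355 counts (2.88-fold higher, 2.54 to 3.27), and COA3 was 1.99-fold higher (1.84 to 2.15). The centred log2 ratio of COA3 was 0.15. SCO1 and SCO2, named after their values were seen, were 1.869-fold (1.632 to 2.144) and 1.935-fold (1.695 to 2.212) higher. Their centred log2 ratios were 1.105 and 0.211. Among 6 further ATP synthase genes that the prefix misses, 2 were higher and 0 lower, beside the same shares of all symbols. C14orf2, a small proteolipid of the membrane part, had 11364 counts after ADGRF4 siRNA and 5047 after control siRNA (2.64-fold higher, 2.55 to 2.73). ATPIF1, the inhibitor that stops ATP synthase from running backwards, had 6603 and 4691 counts (1.65-fold higher, 1.59 to 1.71). The assembly factors TMEM70 and ATPAF2 were 1.503-fold (1.21 to 1.87) and 1.41-fold (1.13 to 1.75) higher by scaled CPM. ATPAF2 was thus short of the limit, and TMEM70 fell short of it only on the log2 scale with a pseudocount (0.555).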

How the data were processed

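For each of the 2 libraries (QuantSeq 3' end kit on Trizol RNA, per the labels' protocols) the authors deposited raw counts by symbol. Bowtie2, edgeR and build hg19 are named, per the submitters' processing notes; the sources used here do not give their roles, the annotation, the strand setting or the treatment of multi-mapping reads. There were 25737 rows, and rows of the 286 repeated symbols were summed (0 members were affected). TMM factors came from edgeR 4.0.16 (R 4.3.3). Log2 ratios used a pseudocount of 1 CPM, which understates low genes, and symbols averaging 30 counts or more. Folds are ratios of scaled CPM with no pseudocount and exact (Clopper-Pearson) 95% intervals, which cover counting error only. The calculation was tested on simulated data. GC content over the final 300 bases of each gene's longest GENCODE 29 transcript was found for 11158 compared symbols (94.8%), and centring used 20 bins. Promoters came from RefSeq (GRCh38.p14); this build differs from hg19, so it was used by gene symbol only. Python 3.11.15, numpy 2.4.6, pandas 2.3.3, scipy 1.17.1 and biopython 1.88 were used. A cell-line marker and a neighbouring gene are not reported here. The members, the lists and the alternatives were chosen with earlier results of these data known. Members past 1.5-fold are given their counts, the others counts or a range, and up to 4 genes with the largest ratios are named per related list. Alternatives were total-count, upper-quartile and DESeq2 1.42.0 scaling, pseudocounts of 0.1 and 5, other count limits, a 2-fold limit, GC centring, the largest row of a symbol, and subunits and assembly factors alone.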

Additional observations from a re-analysis of the deposited data

How the results depend on the processing

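Total-count scaling shifts every log2 ratio by -0.15 before the pseudocount and puts the median of all symbols at -0.16. With it 5 members were at least 1.5-fold higher, 17 lower, and the median of members was -0.14. The shares of all symbols past the limit are not given for this scaling, so these counts are not a result about the members. Under it ATP5J2, ATP5S and COX7C no longer reached 1.5-fold and COX8A, UQCRBP1 and UQCRC2 did. With a 2-fold limit 2 members were higher and 5 lower, beside 7.84% and 10.4% of all symbols. Centring on GC of the 3' end gave 5 higher and 8 lower with a median of -0.15, beside 15.2% and 19.1% of all symbols. Of the 22 called members 12 remained past the limit after centring. ATP5EP2, ATP5F1, ATP5G1, ATP5G3, ATP5I, ATP5J2, ATP5O, COX18, COX6C and COX7B fell short of it. DESeq2 size factors put ATP5EP2 short of the limit, and a pseudocount of 5 CPM put ATP5EP2, ATP5S and COX18 short of it. Under the alternatives other than total-count scaling, the 2-fold limit and centring, 6 to 8 members were higher and 12 to 15 lower, and the median stayed between -0.05 and 0.03. For the scalings, pseudocounts, count limits and choice of row among these, the shares of all symbols are not given. These counts are therefore not a result about the members. No called member changed sign with centring. No paired analysis was possible because there is 1 library per group, and for the same reason no replicate could be left out. Depth limits COX10, COX11, COX15, COX19 and ATP5D, which had at most 474 counts in either library and intervals that include a ratio of 1.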

Other observations

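Genes of the transcription factors and cofactors that act on respiratory genes lay on both sides. After ADGRF4 siRNA, 3 of the 12 compared were higher by 1.5-fold or more and 5 lower, with a median log2 ratio of -0.49, and 21.1% and 22.3% of all symbols were higher and lower. NRF1, the factor of the motif searched in the promoters, had 332 counts after ADGRF4 siRNA and 185 after control siRNA (2.11-fold higher, 1.75 to 2.53). GABPB1, the beta subunit of the ETS factor GABP, had 42 and 145 counts (2.94-fold lower, 2.07 to 4.25). The DNA-binding subunit GABPA, named after its values were seen, had 20 and 42 counts (1.79-fold lower, 1.03 to 3.22). It is the neighbour of ATP5J on the other strand with overlapping exons, and ATP5J had a ratio of 1.02.

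Genes of mitochondrial transcription also differed. TFAM, which packages mitochondrial DNA and starts its transcription, had 305 counts after ADGRF4 siRNA and 854 after control siRNA (2.39-fold lower, 2.09 to 2.73). POLRMT, the mitochondrial RNA polymerase, had 306 and 143 counts (2.51-fold higher, 2.05 to 3.08). Centred on GC content, the log2 ratio of POLRMT was 0.54 and that of TFAM -0.88, and that of NRF1 was 1.32.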
